A study of Mus musculus with 6 samples.

Results

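The genes described here are 10 members of the mouse pathway that shows peptides of the cell's own proteins on MHC class I molecules: H2-K1, H2-D1, B2m, Tap1, Tap2, Tapbp, Psmb8, Psmb9, Psmb10 and Nlrc5. They were taken by symbol, through their Ensembl identifiers, from a table of read counts that lists 49315 genes; all 10 were listed and all 10 were among the 16688 genes with enough counts to be tested. The table covers 6 RNA sequencing libraries of wild type cells from mouse tail-tip skin, 2 in each of 3 groups. Fibroblasts (day 0) had received negative control vectors made as lentivirus. Early cells carried CRISPR activation (CRISPRa) vectors of the SAM type and stand for day 7; replicate 1 is labelled early and replicate 2 partially reprogrammed. Late cells carried the same kind of vectors, were isolated as colonies, are labelled as induced cardiac progenitors and stand for day 22. CRISPRa uses a Cas9 without cutting activity to recruit activators of transcription to chosen promoters. Which genes were chosen is not given in the sources used here. Nor do these sources give the mouse strain, the number of animals or the origin of the replicates, and a p-value here therefore reflects the spread among these libraries, part of which may be technical. The early and late columns of the table were assigned by their names, so the values of the early group and the late group would be exchanged if the names were misread.

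MHC class I molecules consist of a heavy chain, here H2-K1 or H2-D1, and the light chain beta-2 microglobulin, encoded by B2m. The immunoproteasome cuts proteins into peptides with the catalytic subunits Psmb8, Psmb9 and Psmb10, which take the places of Psmb5, Psmb6 and Psmb7 in the constitutive proteasome. The transporter formed by Tap1 and Tap2 carries the peptides into the endoplasmic reticulum, where tapasin, encoded by Tapbp, bridges it to empty class I molecules. Nlrc5 is a coactivator of class I genes that acts through a promoter module of cyclic AMP response element (CRE) and CCAAT box type sequences, and interferon-gamma raises most genes of the pathway in many cell types, skin fibroblasts included.

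Most of these genes lie in the MHC on chromosome 17 of GRCm38, where Psmb9 (34181987 to 34187764, minus strand), Tap1 (34187553 to 34197225, plus strand), Psmb8 (34197721 to 34201454) and Tap2 (34203527 to 34216321) stand next to each other. H2-K1 (33996017 to 34000347), Tapbp (33915899 to 33929292) and H2-D1 (35262730 to 35267499) flank them on the same chromosome, B2m is on chromosome 2 (122147686 to 122153083), and Psmb10 (105935735 to 105938444) and Nlrc5 (94434356 to 94527272) are on chromosome 8. RefSeq promoter windows on GRCm38.p6, from 250 bases before to 50 after the start site, were found for 8 of the 10 genes; Tap2 and Nlrc5 had none. The windows of H2-K1 (chr17:34000298-34000597, minus strand), H2-D1 (chr17:35262844-35263143, plus strand), B2m (chr2:122147437-122147736, plus strand) and Tap1 (chr17:34187306-34187605, plus strand) are shown because they set the genes of the class I molecule itself beside a gene of the peptide transporter. Capitals mark the CCAAT box, the core TGACG of a CRE, the core AANNGAAA bound by interferon regulatory factors and the NF-kB type motif GGGNNTNNCC, each on either strand, written 5′ to 3′ on the strand of the gene.
H2-K1: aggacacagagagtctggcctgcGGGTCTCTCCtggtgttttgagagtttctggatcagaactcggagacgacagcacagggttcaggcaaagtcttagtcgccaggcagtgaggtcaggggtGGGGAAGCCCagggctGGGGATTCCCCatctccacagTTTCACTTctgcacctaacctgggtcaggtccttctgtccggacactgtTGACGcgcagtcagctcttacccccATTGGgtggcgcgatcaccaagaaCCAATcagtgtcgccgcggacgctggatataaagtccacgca
H2-D1: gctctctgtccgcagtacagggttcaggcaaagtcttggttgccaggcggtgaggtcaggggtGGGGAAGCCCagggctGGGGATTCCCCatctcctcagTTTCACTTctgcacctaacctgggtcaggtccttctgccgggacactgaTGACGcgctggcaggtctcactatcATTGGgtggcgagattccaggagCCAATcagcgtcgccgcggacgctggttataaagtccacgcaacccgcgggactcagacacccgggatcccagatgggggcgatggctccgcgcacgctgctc
B2m: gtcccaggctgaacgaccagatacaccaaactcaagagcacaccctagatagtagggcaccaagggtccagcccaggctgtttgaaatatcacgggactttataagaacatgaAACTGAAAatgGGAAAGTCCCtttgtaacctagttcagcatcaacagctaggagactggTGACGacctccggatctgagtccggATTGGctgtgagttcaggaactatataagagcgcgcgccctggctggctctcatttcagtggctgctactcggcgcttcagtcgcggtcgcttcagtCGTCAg
Tap1: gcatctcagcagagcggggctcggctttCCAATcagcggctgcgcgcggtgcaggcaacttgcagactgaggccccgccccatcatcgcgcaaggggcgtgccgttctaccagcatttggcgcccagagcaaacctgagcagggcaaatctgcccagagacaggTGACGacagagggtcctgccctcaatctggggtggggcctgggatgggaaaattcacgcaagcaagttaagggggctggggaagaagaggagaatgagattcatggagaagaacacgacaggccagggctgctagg

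In H2-K1, H2-D1 and B2m, TGACG was followed 25 bases later, counted from first base to first base, by ATTGG, the reverse complement of CCAAT. This spacing was noticed in these windows and then counted in all windows, these included: 31 of 32851 (0.0944%), of 27 genes, held it. Of the 27 genes 4 were H2 genes or B2m, among them also H2-M3, another class I heavy chain. The rest were other genes, such as Per1, Calu and Nasp. Both heavy chain windows also carried the interferon regulatory factor core TTTCACTT and the NF-kB type run GGGGATTCCCC, and the longest run of bases they had in common was 47. The B2m window held 1 match to each of these motifs on other letters. Neither motif was in the windows of Tap1, Tapbp, Psmb8, Psmb9 or Psmb10. Tap1 and Psmb9 are transcribed away from each other, and their windows share 275 bases on opposite strands. Single matches are common, since CCAAT was in 37.4% of all windows, TGACG in 20.8%, AANNGAAA in 23.9% and GGGNNTNNCC in 18.4%, and a match is a stretch of letters, not evidence of binding.

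Total counts ran from 20172874 to 40122999 per library, and the 10 genes together took 0.0591% to 0.1001% of them. Values are given as CPM, read counts put on a common depth with TMM, a normalization for library composition, and a floor of 3 counts corresponded to 0.0842 to 0.142 CPM. Fibroblast markers were present in all groups, with a summed level over 15 genes of 6760 to 18340 CPM. Late replicate 2 stood apart: its 13 cardiomyocyte markers summed to 56500 CPM, against 89.1 CPM in late replicate 1 and 20.6 to 147 CPM in the other 4 libraries. The 2 libraries labelled as progenitors thus differed widely in heart muscle markers. It also had the highest sums of 14 endothelial markers (1139 CPM, against 55.3 to 404 CPM in the other 5 libraries), 10 keratinocyte markers (924 CPM, against 22.2 to 108 CPM) and 12 lymphocyte markers (5.03 CPM, with 1 of the 12 at 0, against 0.0473 to 1.09 CPM, with 7 to 11 at 0). Macrophage and leukocyte markers, 20 genes, summed to 121 and 66.9 CPM in early libraries and to 76.2 and 319 CPM in late libraries, against 364 and 1492 CPM in fibroblasts; 3 and 5 of the 20 were at 0 in early libraries, 1 and 0 in late libraries and 0 in both fibroblast libraries. Erythroid and adipocyte markers, 10 genes, summed to 1320 CPM in late replicate 2, against 2.05 to 12.3 CPM in the other 5 libraries. In all CRISPRa libraries over fibroblasts, 1 of 15 tested fibroblast markers fell (S100a4, edgeR adjusted p = 0.0156) and 0 rose, while 8 of the 15 had positive values and the list's median log2 fold change was 0.02. Of 20 macrophage and leukocyte markers 1 fell (Cd68, adjusted p = 0.0451), 1 had a positive value and the median was -4.87. Of 7 tested keratinocyte markers 2 rose (Cdh1 and Krt15, adjusted p = 0.0336 and 0.0459), 5 had positive values and the median was 2.27. These medians join 2 groups that differed. For fibroblast markers the median was 0.52 in early cells over fibroblasts (10 of 15 positive) and -0.79 in late cells (4 of 15 positive). For macrophage and leukocyte markers it was -7.40 in early and -2.17 in late cells, and for keratinocyte markers 0.61 and 3.76. No lymphocyte, endothelial, cardiomyocyte, erythroid or adipocyte marker passed. Tested were 1 of 12 lymphocyte, 10 of 14 endothelial, 13 of 13 cardiomyocyte and 3 of 10 erythroid and adipocyte markers. In late cells over fibroblasts all 13 cardiomyocyte markers (median 8.38) and all 10 tested endothelial markers (median 5.96) had positive values. In early cells over fibroblasts these medians were -1.96 and 0.01. The high sums of both lists given above were those of late replicate 2. In such bulk samples fewer cells of a type and less RNA per cell cannot be told apart.

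None of the 10 class I genes passed the test in any comparison. The test was edgeR's quasi-likelihood test over all 6 libraries with Benjamini-Hochberg adjustment over the 16688 genes, with a threshold of 0.05 on the adjusted p for a gene to count as risen or fallen. Early cells against fibroblasts gave 0 of 10 class I genes, where 1.53% of all genes tested passed. Late cells against fibroblasts gave 0 of 10, where 1.42% of all genes passed, and late against early cells gave 0 of 10, where 0% of all genes passed. The mean of early and late cells against fibroblasts, in short all CRISPRa libraries, gave 0 of 10, where 9.93% passed. At an unadjusted p under 0.05 the edgeR count was also 0 of 10 in each comparison, where 29.8% of all genes passed for early against fibroblast, 32.5% for late against fibroblast, 10.2% for late against early and 35.3% for all CRISPRa libraries against fibroblasts. DESeq2 called 0 of 10 in each at an adjusted p under 0.05, where it called 25.2%, 28.1%, 5.72% and 31.6% of the genes to which it gave an adjusted p, in the same order. The comparisons with fibroblasts share the same 2 fibroblast libraries, and with 3 residual degrees of freedom the intervals of many genes are wide.

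**Figure D1:**
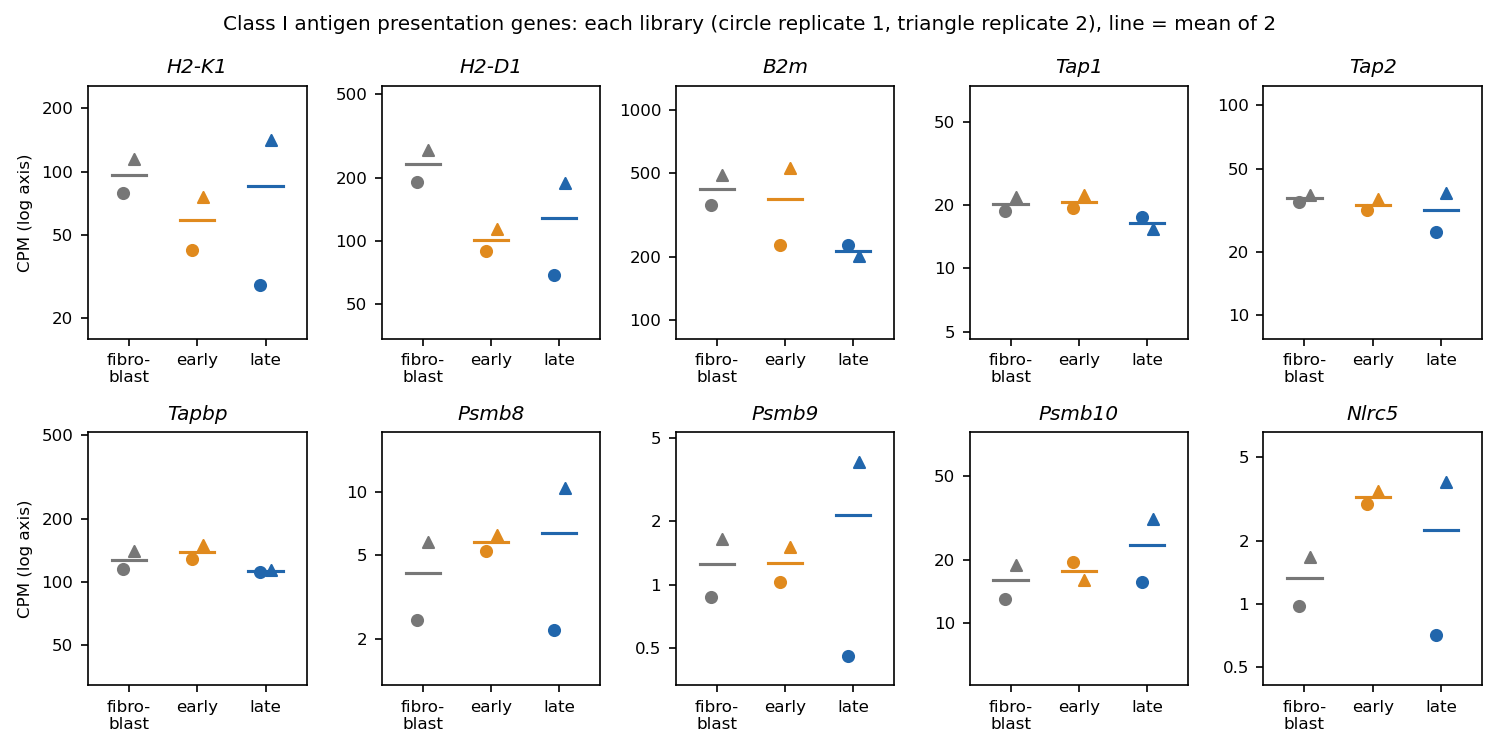
CPM (log axis) of each class I gene in each library, with a circle for replicate 1, a triangle for replicate 2 and a line at the mean of 2, for fibroblasts (day 0), early cells (day 7) and late cells (day 22). Tap1, Tap2 and Tapbp stay within a narrow band in all 6 libraries, while the 2 late libraries lie far apart for H2-K1, Psmb8, Psmb9 and Nlrc5.

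The light chain gene was the most abundant of the 10. Per kilobase of the principal transcript, which allows levels of different genes to be compared, B2m averaged 488 CPM per kb in fibroblasts, 439 in early cells and 248 in late cells, above every other member in every library of each group. H2-D1 followed at 110, 48.2 and 61.1 CPM per kb in fibroblast, early and late cells, H2-K1 at 59.8, 36.3 and 52.8, and Tapbp at 44.0, 47.8 and 38.7. These 3 did not overlap in fibroblasts. In early cells H2-D1 overlapped with Tapbp and Tapbp with H2-K1. In late cells H2-D1 overlapped with H2-K1 and H2-K1 with Tapbp. The order and the overlaps can depend on the transcript length used. H2-K1 has 1619 bases in its principal transcript and 2938 with all exons merged, against 2898 and 3628 for Tapbp. Psmb10, Tap2 and Tap1 came next, with means of 5.57 to 18.0 CPM per kb, and only Psmb10 and Tap2 in fibroblasts overlapped among them. Psmb8 and Psmb9 averaged 0.932 to 3.91 CPM per kb. Nlrc5 was the lowest in each group, with means of 0.175 in fibroblasts, 0.425 in early cells and 0.297 in late cells; in late cells Psmb8 overlapped with Tap1 above it and with Psmb9 below it, and Psmb9 with Nlrc5.

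The heavy chain H2-D1 was lower in every CRISPRa library than in either fibroblast library. It was at 89.0 and 114 CPM in early cells and at 68.9 and 188 CPM in late cells, against 191 and 272 CPM in fibroblasts. All 4 CRISPRa libraries were below both fibroblast libraries, late replicate 2 by the least. The log2 fold change of all CRISPRa libraries over fibroblasts was -1.02 ± 0.43 (SE), with a 95% interval from -2.10 to 0.06 and an edgeR adjusted p of 0.156. The values were -1.19 ± 0.52 for early over fibroblast (adjusted p = 0.194) and -0.85 ± 0.51 for late over fibroblast (adjusted p = 0.293). Leaving out late replicate 2 put the difference between all CRISPRa libraries and fibroblasts at -1.48, in a fit that keeps 1 late library. Over the settings that each leave out 1 library it ran from -1.48 to -0.76. Groups that do not overlap were common in these data, at 49.2% of all genes for all CRISPRa libraries against fibroblasts, and H2-D1 was 1 of 10 class I genes there.

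The second heavy chain, H2-K1, was at 42.3 and 75.4 CPM in early cells and at 28.8 and 142 CPM in late cells, against 78.9 and 115 CPM in fibroblasts. Both early libraries were below both fibroblast libraries, while the late libraries held the lowest and the highest value of the 6. The log2 fold change was -0.72 ± 0.76 for early over fibroblast, with a 95% interval from -2.64 to 1.20 (edgeR adjusted p = 0.569), and -0.18 ± 0.76 for late over fibroblast (adjusted p = 0.883). H2-K1 stood at 0.475 and 0.663 of the H2-D1 level in early libraries and at 0.418 and 0.756 in late libraries, against 0.412 and 0.421 in fibroblasts, as ratios of CPM. Early replicate 2 and late replicate 2 thus had more H2-K1 for their H2-D1 than the other 4 libraries. Of the distinct 50-base stretches in the annotated transcripts of H2-K1, 9.63% also occur in other genes, chiefly H2-Q10, H2-D1, H2-Q7 and H2-Q4, and for H2-D1 the share is 12.8%, chiefly H2-Q1, H2-K1, H2-Q7 and H2-Q6. The treatment of reads that fit several genes is not given in the sources used here, both genes differ between mouse strains, and their counts are uncertain to that extent.

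B2m was at 227 and 527 CPM in early cells and at 226 and 201 CPM in late cells, against 351 and 489 CPM in fibroblasts. Both late libraries were below both fibroblast libraries, and the early libraries lay on either side of them. The log2 fold change was -0.98 ± 0.45 for late over fibroblast, with a 95% interval from -2.11 to 0.15 (edgeR adjusted p = 0.196), and -0.16 ± 0.44 for early over fibroblast (adjusted p = 0.848), a value that turned to 0.01 when libraries were scaled by total counts alone. No stretch of 50 bases of B2m occurs in another gene. Per kilobase of the principal transcript, a length on which these ratios depend, the summed heavy chains were set against B2m. They came to 0.259 and 0.164 of B2m in early libraries and to 0.192 and 0.760 in late libraries, against 0.342 and 0.352 in fibroblasts. Late replicate 2 had more heavy chain RNA for its B2m than any other library, and early replicate 2 the least.

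The genes of peptide transport and loading varied least. Tap1, a subunit of the transporter that binds and hydrolyses ATP, was at 19.3 and 22.4 CPM in early cells and at 17.5 and 15.4 CPM in late cells, against 18.7 and 21.8 CPM in fibroblasts. Early replicate 1 lay within the fibroblast range and early replicate 2 just above it, and both late libraries lay below it. The log2 fold change was 0.04 ± 0.26 for early over fibroblast, an interval in folds of 0.658 to 1.61 (edgeR adjusted p = 0.934), and -0.30 ± 0.26 for late over fibroblast, 0.518 to 1.27 in folds (adjusted p = 0.438).

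Tap2, the partner of Tap1 in the transporter, was at 31.7 and 35.6 CPM in early cells and at 25.01 and 38.2 CPM in late cells, against 34.7 and 37.3 CPM in fibroblasts. The late libraries held its lowest and highest values. The intervals of its fold change were 0.579 to 1.51 for early over fibroblast and 0.545 to 1.42 for late over fibroblast (edgeR adjusted p = 0.847 and 0.658). Tapbp was at 128 and 149 CPM in early cells and at 111 and 113 CPM in late cells, against 115 and 140 CPM in fibroblasts. Its late libraries were both just below the fibroblast range. Its fold intervals were the narrowest of the 10 genes, 0.755 to 1.56 for early over fibroblast and 0.613 to 1.27 for late over fibroblast (adjusted p = 0.740 and 0.564). True changes within these intervals remain possible with 2 libraries a group.

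**Figure D2:**
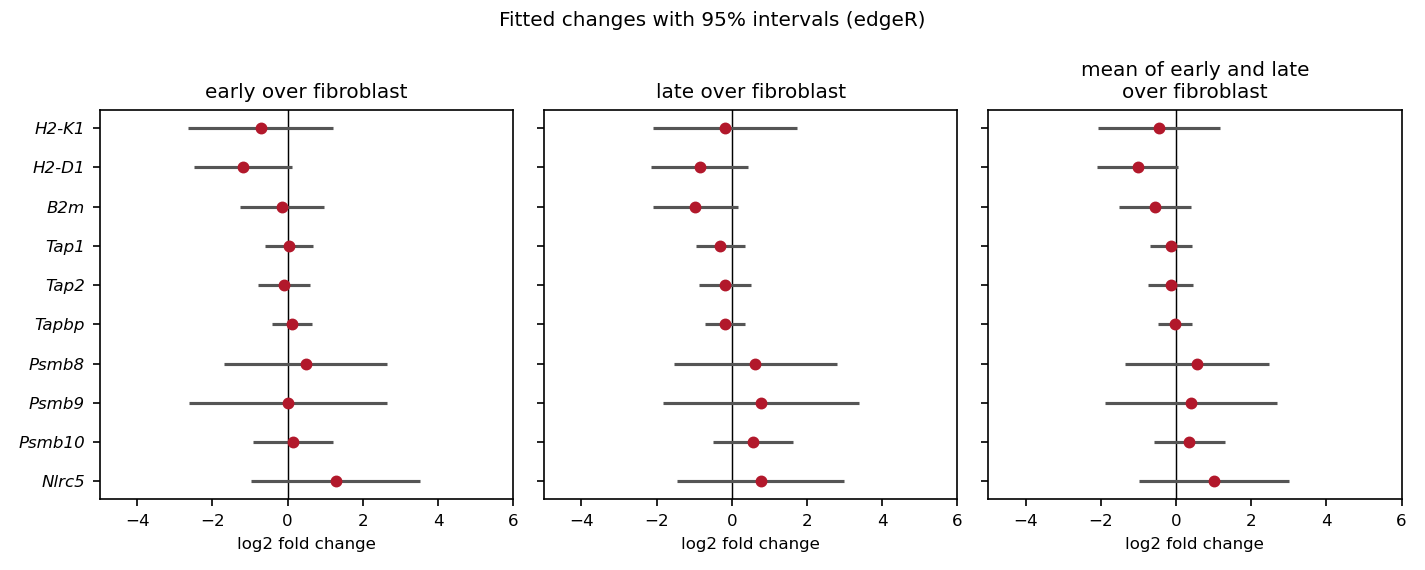
Fitted log2 fold changes of the 10 genes with 95% intervals from edgeR, for early over fibroblast, late over fibroblast and the mean of early and late over fibroblast. Every interval crosses 0; those of Tap1, Tap2 and Tapbp are the shortest, and those of Psmb9 and Nlrc5 are among the longest.

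Of the immunoproteasome genes Psmb8 and Psmb9 were scarce, and the highest values of all 3 were in late replicate 2. Psmb8, the chymotrypsin-like subunit, was at 5.26 and 6.29 CPM in early cells and at 2.21 and 10.5 CPM in late cells, against 2.45 and 5.79 CPM in fibroblasts. Psmb9, the subunit in the place of Psmb6, was at 1.02 and 1.51 CPM in early cells and at 0.459 and 3.85 CPM in late cells, against 0.873 and 1.65 CPM in fibroblasts, which rests on 11 to 137 counts per library. Psmb10, the trypsin-like subunit, was at 19.5 and 15.995 CPM in early cells and at 15.7 and 31.4 CPM in late cells, against 13.1 and 18.9 CPM in fibroblasts. In all 3 genes late replicate 2 was the highest of the 6 libraries, and the groups overlapped in every comparison.

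The log2 fold changes of these subunits in late cells over fibroblasts were 0.63 ± 0.86 for Psmb8, 0.78 ± 1.03 for Psmb9 and 0.56 ± 0.42 for Psmb10 (edgeR adjusted p = 0.630, 0.620 and 0.389). In early cells over fibroblasts they were 0.48 ± 0.86, 0.01 ± 1.04 and 0.15 ± 0.42 (adjusted p = 0.745, 0.998 and 0.843). Without late replicate 2 the late values of the 3 genes were all negative.

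Set against the constitutive subunit that each replaces, all 3 stayed the minor form. Psmb8 per kilobase was 2.72% and 3.84% of Psmb5 in early libraries and 1.31% and 5.47% in late libraries, against 1.37% and 3.13% in fibroblasts. Psmb9 was 0.501% and 0.973% of Psmb6 in early libraries and 0.239% and 1.69% in late libraries, against 0.484% and 0.905% in fibroblasts. Psmb10 was 10.3% and 12.5% of Psmb7 in early libraries and 10.5% and 17.3% in late libraries, against 8.94% and 12.5% in fibroblasts. The constitutive partners themselves moved little: Psmb5 was at 90.5 to 107 CPM, Psmb6 at 91.9 to 135 CPM and Psmb7 at 113 to 167 CPM over the 6 libraries. Late replicate 2 had the highest share for each of the 3 subunits. The percentages depend on the transcript length used: with all exons of a gene merged, Psmb8 was 0.630% to 2.63% of Psmb5, Psmb9 0.208% to 1.46% of Psmb6 and Psmb10 20.3% to 39.3% of Psmb7.

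**Figure D3:**
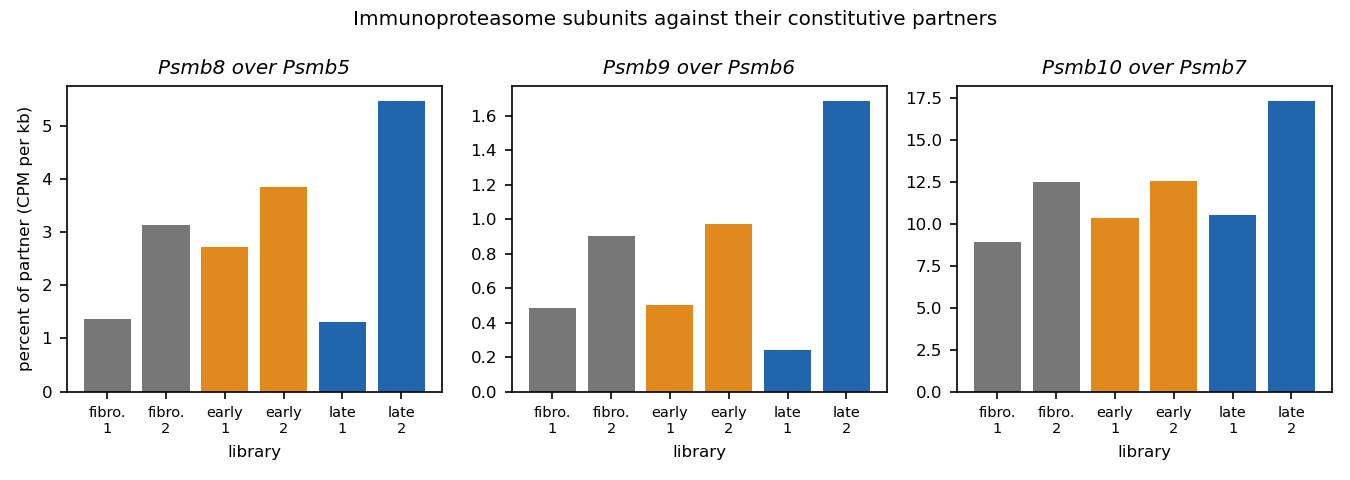
Each immunoproteasome subunit as a percent of its constitutive partner, in CPM per kb, with 1 bar per library from fibroblast to early to late. The bar of late replicate 2 is the tallest in each panel, at 5.47%, 1.69% and 17.3%.

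Nlrc5, the coactivator of class I genes, was the only one of the 10 higher in both early libraries than in both fibroblast libraries. It was at 2.98 and 3.45 CPM in early cells and at 0.709 and 3.79 CPM in late cells, against 0.974 and 1.68 CPM in fibroblasts. The counts behind these values were 67 and 73 in early libraries and 17 and 135 in late libraries, against 29 and 57 in fibroblasts. The late libraries were again the lowest and the highest of all. The log2 fold change was 1.28 ± 0.89 for early over fibroblast, with a 95% interval from -0.96 to 3.51 (edgeR adjusted p = 0.381), and 0.77 ± 0.88 for late over fibroblast (adjusted p = 0.564). For early against fibroblast, 66.7% of all genes did not overlap between the groups, and among the 10 class I genes 1 was higher (Nlrc5) and 2 were lower (H2-K1 and H2-D1), a smaller share than among all genes.

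For late against fibroblast, 68.5% of all genes did not overlap, and 4 of the 10 class I genes did not, all lower in late cells (H2-D1, B2m, Tap1 and Tapbp). For late against early the figures were 33.7% of all genes and 3 of 10, again all lower in late cells (B2m, Tap1 and Tapbp). None of these shares of the class I genes was above that of all genes. The median log2 fold change of the 10 genes was 0.02 for early over fibroblast, where that of all genes tested was 0.00, and -0.18 for late over fibroblast, where that of all genes was 0.11. For late over early it was 0.03, where that of all genes was -0.03, and for all CRISPRa libraries over fibroblasts it was -0.08, where that of all genes was 0.07.

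Between late and early cells no direction was common to the pathway, with 5 of the 10 genes positive and 5 negative. The log2 fold changes of late over early were -0.82 ± 0.45 for B2m (edgeR adjusted p = 0.582), -0.51 ± 0.87 for Nlrc5 (adjusted p = 0.891), 0.54 ± 0.76 for H2-K1 (adjusted p = 0.860) and 0.77 ± 1.04 for Psmb9 (adjusted p = 0.853). The other 6 genes lay between -0.34 for Tap1 and 0.41 for Psmb10.

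For several genes the late libraries differed from each other by more than the groups did. Late replicate 2 was more than 2-fold above late replicate 1 for 5 of the 10 class I genes, where 17% of all genes were. The 5 were Psmb9 (8.39-fold), Nlrc5 (5.35-fold), H2-K1 (4.94-fold), Psmb8 (4.77-fold) and H2-D1 (2.73-fold), while B2m (0.888-fold) and Tap1 (0.877-fold) were slightly lower in late replicate 2. In the early group 1 of the 10 was more than 2-fold higher in replicate 2 (B2m, 2.32-fold), where 15.4% of all genes were, and in fibroblasts also 1 (Psmb8, 2.36-fold), where 7.22% of all genes were. Fibroblast replicate 2 was above fibroblast replicate 1 for all 10 genes, with folds of 1.07 to 2.36 (median 1.44, all genes 0.99). Replicate 2 was also the higher one for 9 of the 10 in early cells (median fold 1.18, all genes 1.01). In late cells it was higher for 8 of the 10 (median fold 2.36, all genes 0.97). Over the 6 libraries, late replicate 2 was the highest for 6 of the 10 genes and the lowest for 2, late replicate 1 was the lowest for 7, and early replicate 2 was the highest for 3.

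The 2 late libraries therefore gave partly different pictures, although H2-D1, B2m, Tap1 and Tapbp were below both fibroblast libraries in each of them. Without late replicate 2, all 10 class I genes were lower in late cells than in fibroblasts (median log2 fold change -0.90, all genes -0.04) and lower than in early cells (median -0.65, all genes -0.05), and none passed the test in either comparison. Without late replicate 1, 6 of 10 were higher in late cells than in fibroblasts (median 0.23, all genes 0.06), and again none passed. Each such fit keeps 1 late library, which is assumed to vary like the other groups. Cardiomyocyte, endothelial, keratinocyte and lymphocyte markers and the class II genes H2-Ab1 (11.7 CPM, against 0.208 CPM in late replicate 1) and Cd74 (26.9 CPM, against 0.875 CPM) were also higher in late replicate 2; their part in the class I values was not tested. Macrophage and leukocyte markers were higher in fibroblast replicate 2 and late replicate 2 than in the other replicate of their group, and their part was likewise not tested.

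**Figure D4:**
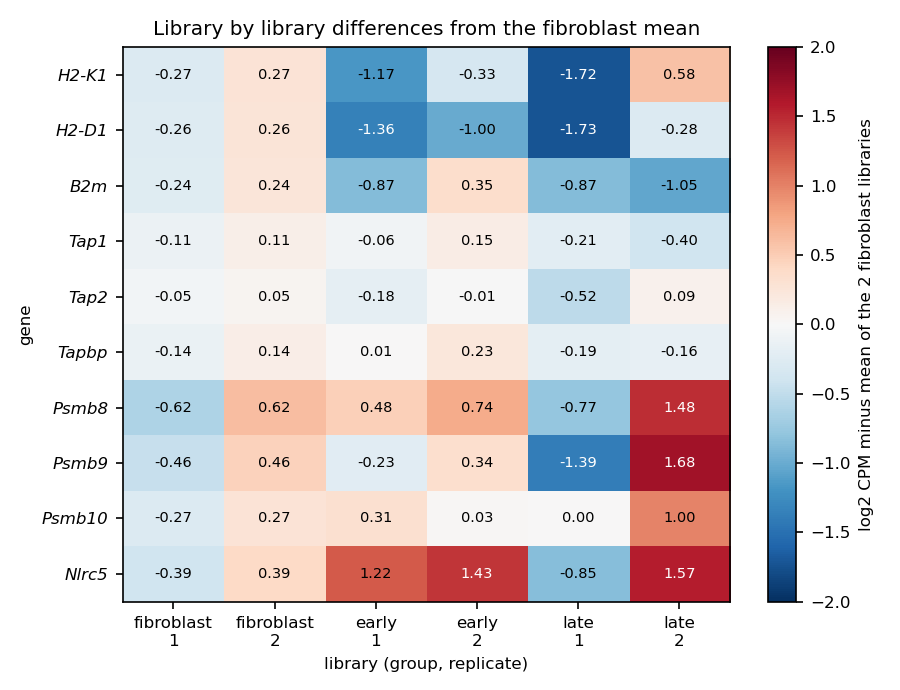
Log2 CPM of each class I gene in each library minus the mean of the 2 fibroblast libraries (genes down the page, libraries across from fibroblast to early to late; red is higher, blue lower). Late replicate 1 is level with the fibroblast mean for Psmb10 (0.00) and below it for the other genes, late replicate 2 is above it for Psmb8, Psmb9, Psmb10 and Nlrc5, by up to 1.68, for H2-K1 by 0.58 and for Tap2 by 0.09, and H2-D1 is below it in all 4 CRISPRa libraries.

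Related genes of the pathway passed the test at about the rate of all genes. Over 8 lists of related genes, 13 of 135 tested genes (9.63%) passed in all CRISPRa libraries over fibroblasts, where 9.93% of all genes did. Among other MHC class I heavy chains, 13 of 25 matched genes had enough counts, and 1 rose in all CRISPRa libraries over fibroblasts and 0 fell. The gene that rose was Mr1, which presents vitamin B metabolites to T cells, at 46.6 and 62.3 CPM in early cells and 42.0 and 35.2 CPM in late cells, against 21.6 and 21.4 CPM in fibroblasts (log2 fold change 1.09 ± 0.22, edgeR adjusted p = 0.0437). H2-Q4, H2-Q6 and H2-Q7, close relatives of the heavy chains studied here, did not pass but were highest in late replicate 2, at 30.5, 14.1 and 9.32 CPM. They were picked after their values were seen, and the list as a whole was not highest there. Its 25 matched genes summed to 269 CPM in late replicate 2, against 316 CPM in early replicate 2 and 306 CPM in fibroblast replicate 2.

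Of 17 genes of peptide loading and trimming, 1 rose and 1 fell in all CRISPRa libraries over fibroblasts. Blmh, a peptidase of the cytosol that trims peptides, rose to 60.2 and 54.1 CPM in early cells and 76.8 and 64.9 CPM in late cells, against 22.8 and 26.7 CPM in fibroblasts (log2 fold change 1.36 ± 0.19, edgeR adjusted p = 0.0284). Calr, the chaperone calreticulin that holds class I molecules during loading, fell to 836 and 1025 CPM in early cells and 765 and 750 CPM in late cells, against 1585 and 1946 CPM in fibroblasts (-1.07 ± 0.22, adjusted p = 0.0462). Erap1, which trims peptides in the endoplasmic reticulum, was at 21.97 to 37.2 CPM over the 6 libraries and did not pass (adjusted p = 0.736).

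Of 21 constitutive proteasome subunits and activators, 0 rose and 0 fell in all CRISPRa libraries over fibroblasts. An edgeR unadjusted p under 0.05 was reached by 3 of the 21, where 35.3% of all genes reached it. Psme1, a subunit of the interferon-inducible proteasome cap, was at 66.0 and 75.7 CPM in early cells and 61.8 and 89.5 CPM in late cells, against 38.9 and 34.7 CPM in fibroblasts (log2 fold change 0.99 ± 0.23, edgeR adjusted p = 0.0543). Its partner Psme2 was at 43.8 to 60.6 CPM over the 6 libraries (0.14 ± 0.17, adjusted p = 0.590).

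Among 24 transcriptional regulators with enough counts, 1 rose and 0 fell in the same comparison. Ezh2, the catalytic subunit of the Polycomb repressive complex PRC2, was at 101 and 49.1 CPM in early cells and 73.2 and 47.5 CPM in late cells, against 12.8 and 8.91 CPM in fibroblasts (log2 fold change 2.63 ± 0.44, edgeR adjusted p = 0.0336). The activators Irf1 and Rfx5, which act at class I promoters, did not pass. Irf1 was at 29.0 and 39.9 CPM in early cells and 22.6 and 32.9 CPM in late cells, against 18.4 and 30.2 CPM in fibroblasts, and Rfx5 was at 12.5 to 17.0 CPM over the 6 libraries.

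In the list of interferon ligands, receptors and kinases, 11 of 15 genes had enough counts, and 1 rose and 1 fell in all CRISPRa libraries over fibroblasts. Socs3, an inhibitor of cytokine signalling, was at 139 and 149 CPM in early cells and 60.9 and 59.6 CPM in late cells, against 29.9 and 24.6 CPM in fibroblasts, and it rose in early cells over fibroblasts (log2 fold change 2.40 ± 0.20, edgeR adjusted p = 0.0224). Jak1, a kinase of interferon receptors, fell to 235 and 206 CPM in early cells and 178 and 188 CPM in late cells, against 350 and 370 CPM in fibroblasts (all CRISPRa libraries, -0.84 ± 0.17, adjusted p = 0.0449). Interferon-gamma itself, Ifng, had counts only in late replicate 2, at 0.0281 CPM, under the floor of 3 counts.

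The antiviral interferon-stimulated genes answer to the same cytokines as many class I genes. Of 32 tested, 3 rose (Oasl1, Mx2 and Iigp1) and 1 fell (Ifit2) in all CRISPRa libraries over fibroblasts, and the median log2 fold change was 1.54 in early cells and 0.41 in late cells over fibroblasts, where the class I medians were 0.02 and -0.18. The difference between the lists was not tested. Of 9 class II pathway genes with enough counts, 0 rose and 2 fell in that comparison: Ctsl, a lysosomal protease with many other substrates (-3.43 ± 0.40, edgeR adjusted p = 0.0218), and H2-DMa, part of the class II peptide editor (-2.67 ± 0.38, adjusted p = 0.0280). Of 8 ligands of natural killer cells and checkpoint ligands, 1 rose, Nectin2, in early and in late cells (2.04 ± 0.26 and 2.14 ± 0.26, adjusted p = 0.0412 and 0.0465). These calls depended on the settings. Of 25 calls of listed genes followed, all kept their direction in every alternative that gave them a value. With DESeq2 0 were lost, and with the replicate number as a block 16 were. Fits that leave out a fibroblast library could call almost no gene, so the loss of calls there says nothing about stability. Some calls also missed the threshold whichever early or late library was left out. Each of these fits keeps 1 library in the group concerned. Scaling by total counts alone ended the calls of Mr1, Calr and Jak1 and that of Blmh in late cells (0.0558 to 0.136), and testing without the filter ended that of Iigp1 (0.0668).

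**Figure D5:**
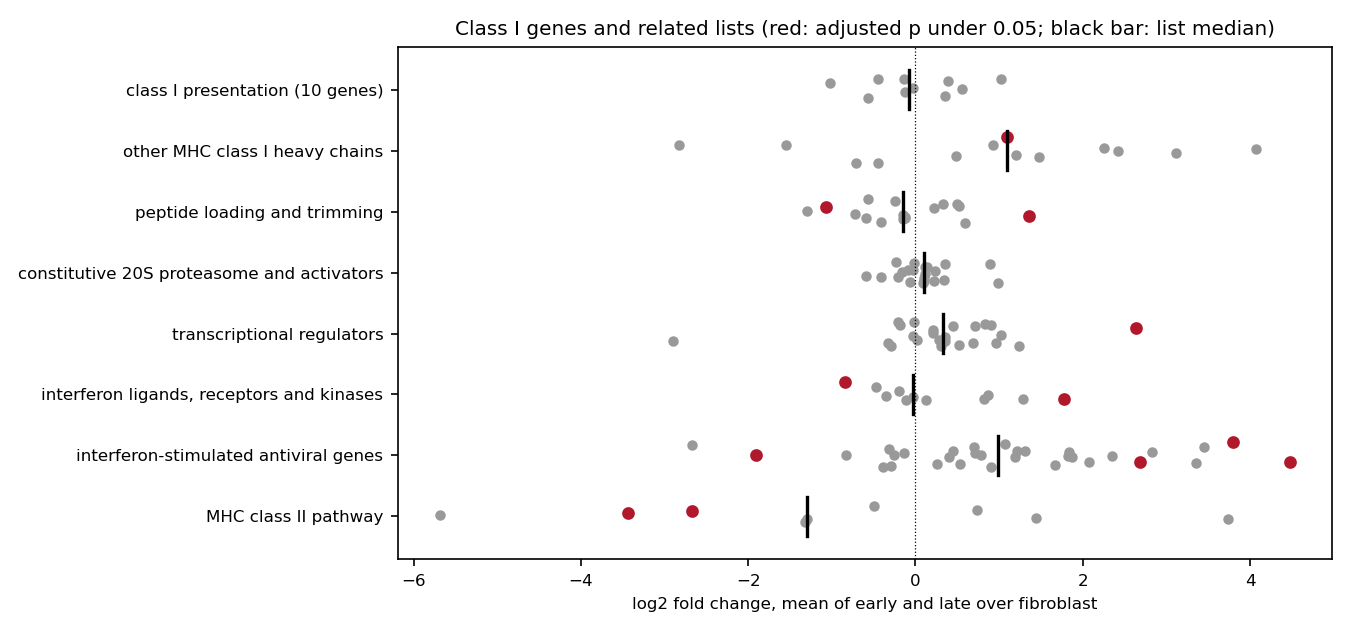
Log2 fold change of the mean of early and late over fibroblast for the class I genes (top row) and 7 lists of related genes, with 1 point per tested gene, red where the adjusted p is under 0.05 and a black bar at the median. The class I genes hold no red point and a median of -0.08; the interferon-stimulated genes hold 3 red points above 0 and 1 below.

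Across the 6 libraries the 10 genes fell into patterns that were partly shared. Correlations of log2 CPM over these 6 libraries, which include the differences between replicates described above, were r = 0.94 for H2-K1 with Tap2, 0.93 for Psmb8 with Psmb9, 0.92 for Psmb8 with Nlrc5 and 0.90 for H2-K1 with H2-D1. Tap1 went with Tapbp (r = 0.90) and B2m (r = 0.88) but not with its neighbour Psmb9 (r = -0.19). The genes outside the 10 whose pattern was most like the mean of their standardized log2 CPM, among 9562 candidates, were Parp14 (r = 0.966), Atxn7 (0.957), Mkln1 (0.956), Fech (0.943) and Tmx1 (0.938). They are the highest of many correlations over only 6 libraries, and whether unrelated genes reach such values was not tested. Parp14, an ADP-ribosyltransferase, was at 19.7 and 25.4 CPM in early cells and at 7.88 and 24.01 CPM in late cells, against 14.0 and 23.6 CPM in fibroblasts, with its lowest value, like that of 7 class I genes, in late replicate 1.

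Some counts can hold reads of neighbouring genes, since the strand setting of the counting is not given in the sources used here. Tap1 and Psmb9 share 212 exonic bases on opposite strands, which is 5.79% of the exonic bases of Psmb9, the gene with the fewest counts. Psmb8 shares 498 exonic bases (14.7%) with the antisense gene Gm20496, Tap2 shares 533 (14.1%) with Gm15821, and Tapbp shares 904 (24.9%) with Gm19412. These antisense genes had at most 7, 14 and 21 counts in any library.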

How the data were processed

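Poly(A)-selected cDNA was made from RNA purified with a PureLink kit, per the labels' protocols. The authors deposited raw read counts per Ensembl gene for 6 libraries, not normalized. The submitters' processing notes name the build GRCm38, Subread 1.5.2, featureCounts, Trimmomatic 0.36 and STAR 2.5.2b. The annotation release is not given in the sources used here, and the same holds for the strand setting and for how reads mapping to several places were treated. Groups and replicate numbers came from the labels. Fibroblast columns carry sample titles, and early and late columns were read by name.

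GENCODE M21 on GRCm38 supplied symbols and positions (49056 of 49315 identifiers had a symbol, and 31952 genes had a count). In R 4.3.3, edgeR 4.0.16 was run with its default expression filter, TMM, robust quasi-likelihood fits to 3 group means and no block, and Benjamini-Hochberg adjustment over 16688 genes; the common biological coefficient of variation was 48.6%. DESeq2 1.42.0 was an alternative, as were size factors by RLE, scaling by total counts only, no filter, fits to the groups compared alone, a replicate block and leaving out each library. The fits were also run on simulated counts with the same spread in all groups, and the outcome is not reported here. Such counts do not show how the fits behave with a library set apart like late replicate 2. CPM are counts divided by the TMM effective library size. Intervals are 95% intervals of the fit. Levels per kilobase use the principal transcript; merged exons were added after seeing the data.

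The members and the 15 related lists were chosen with earlier results of these data known; 4 of 266 listed symbols were not matched. Named were all 10 members, called genes of each list (at most 4), Psme1, Psme2, Erap1, Irf1, Rfx5, the constitutive partners and the 5 genes most like the members' mean log2 CPM (prior count 2) among genes with a mean of at least 3. Other genes were named after their values were seen, and a gene that the rule names is not reported here.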

Additional observations from a re-analysis of the deposited data

How the results depend on the processing

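Of 470 values recomputed for the class I genes, 433 kept their direction and their side of the threshold, 1 newly passed it (H2-D1 in all CRISPRa libraries over fibroblasts without late replicate 2) and 36 changed sign without passing, 29 of these when a library was left out. Part of this says nothing about stability, since some fits could call almost no gene: when fibroblast replicate 1 or 2 was left out 0 to 2 of all genes passed in each comparison with fibroblasts, and late over early called 0 genes except with DESeq2, without the filter or without late replicate 1. The count of class I genes called stayed at 0 in every comparison and alternative except all CRISPRa libraries over fibroblasts, where it ran from 0 to 1 over the fits that leave out 1 library. Scaling by total counts only moved the median log2 fold change of all genes to 0.17 for early and 0.27 for late over fibroblasts and 0.23 for all CRISPRa libraries over fibroblasts, and without the filter the medians were 0 for early over fibroblasts, 0.36 for late over fibroblasts, 0.08 for late over early and 0.34 for all CRISPRa libraries over fibroblasts; fold changes under these settings are to be read relative to these. Sign changes outside the left-out libraries were small. With total counts only, Tap1, Tap2 and Tapbp were at 0.046, 0.0057 and 0.14 in all CRISPRa libraries over fibroblasts, and B2m and Tap2 at 0.013 and 0.074 in early cells over fibroblasts. Without the filter Psmb9 was at -0.027 in early cells over fibroblasts.

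The number of all genes called depended strongly on the tool. DESeq2 called 4201 genes for early and 4683 for late over fibroblasts, 936 for late over early and 5277 for all CRISPRa libraries over fibroblasts, and edgeR without the filter called 2337, 2495, 276 and 3260 in the same order, where the filtered fit called 255, 237, 0 and 1657. Fits to the groups compared alone called 1469 for early and 1016 for late over fibroblasts. Scaling by total counts only called 514 for early over fibroblasts. For all CRISPRa libraries over fibroblasts it moved the split of calls to 651 higher and 751 lower, where TMM gave 563 higher and 1094 lower, and for late over fibroblasts to 180 higher and 120 lower, where TMM gave 107 and 130. The cause was not tested, except that the fits to 2 groups use fewer samples. Leaving out 1 library gave 0 to 823 for early over fibroblasts, 0 to 1058 for late over fibroblasts, 0 to 602 for late over early and 0 to 1490 for all CRISPRa libraries over fibroblasts.

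Over the fits that leave out 1 library, these log2 fold changes crossed 0, and none of them passed the test. In all CRISPRa libraries over fibroblasts they ran from -0.21 to 1.295 for Psmb8, -0.73 to 0.91 for Psmb9 and -0.18 to 0.10 for Tapbp. In early over fibroblasts they ran from -0.84 to 0.33 for B2m, -0.10 to 0.44 for Psmb10, -0.015 to 1.23 for Psmb8, -0.39 to 0.53 for Psmb9, -0.076 to 0.15 for Tap1 and -0.021 to 0.26 for Tapbp. In late over early they ran from -0.56 to 0.78 for H2-D1, -1.03 to 1.17 for H2-K1, -2.18 to 0.13 for Nlrc5, -0.18 to 0.71 for Psmb10, -1.39 to 0.76 for Psmb8, -1.46 to 1.49 for Psmb9 and -0.43 to 0.075 for Tap2. In late over fibroblasts they ran from -1.75 to 0.47 for H2-K1, -0.91 to 1.42 for Nlrc5, -0.030 to 0.89 for Psmb10, -0.91 to 1.36 for Psmb8, -1.46 to 1.52 for Psmb9 and -0.53 to 0.00096 for Tap2.

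Same-numbered replicates of different groups share only a number in the labels; their deviations from the group means correlated at 0.121 for fibroblast with early, 0.238 for fibroblast with late and 0.0859 for early with late. With the replicate number as a block, 26 genes were called for early and 9 for late over fibroblasts and 690 for all CRISPRa libraries over fibroblasts, no class I gene was called, and Psmb8 in late over early was at -0.24. Of 25 calls followed for listed genes, 16 missed the threshold under the block (adjusted p 0.0504 to 0.0801), and all 25 kept their direction in every alternative that gave them a value.

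With 2 libraries a group, an exact permutation test of 2 against 2 cannot go below p = 0.333, and Psmb9, with 11 to 137 counts per library, and Nlrc5, with 17 to 135, had wide intervals.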
